A study of Mus musculus with 89 samples.

Results

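Tiam1, Tiam2 and 8 genes that work beside them in Rac signalling were followed in the forebrain of mouse embryos trisomic for segments homologous to human chromosome 21. The members were the probe sets whose only gene symbol was Tiam1, Tiam2, Rac1, Rac3, Vav2, Vav3, Prex1, Prex2, Trio or Kalrn, which gave 10 of 22206 probe sets, 1 for each gene. They were chosen by gene name and map position, with earlier results of these data known. Tiam1 lies on the part of mouse chromosome 16 (Mmu16) that is present in 3 copies in both models, and Tiam2 on the part of chromosome 17 (Mmu17) that is extra only in Ts65Dn. The other 8 genes are disomic, Kalrn among them, although it also lies on chromosome 16, outside the triplicated part.

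The Clariom S expression array was hybridised with total RNA of dissected forebrain from 89 embryos at embryonic day 18.5, 1 array for each embryo. The groups were 23 Ts65Dn embryos with 18 euploid embryos of the same colony (EupTs65Dn), and 24 Ts66Yah embryos with 24 euploid embryos of that colony (EupTs66Yah). The series text gives 25 Ts66Yah embryos while the sample labels give 24. Both colonies were kept on a mixed B6 and C3H background, received no treatment, and held both sexes in each group. Ts65Dn carries an extra chromosome that joins the distal end of Mmu16 to the proximal end of Mmu17 and passes only through the mother, since its males are infertile. Ts66Yah is a derived line with the Mmu16 segment and without the Mmu17 genes that have no counterpart on human chromosome 21. It was founded from 3 females and expanded with sperm of 4 males. Each colony contributed 6 litters, and embryos of 1 litter share a dam. Dam names begin with TS in the Ts65Dn colony and with WT in the other, so the dam and the colony cannot be told apart. Whole forebrain was measured, so fewer cells of a type and less RNA per cell cannot be told apart.

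Rac GTPases are small switch proteins that, when bound to GTP, drive branched actin assembly in growth cones, migrating neurons and dendritic spines. Guanine nucleotide exchange factors (GEFs) load them with GTP, GTPase-activating proteins switch them off, and effectors such as the PAK kinases and the WAVE complex act downstream. Tiam1 and its close relative Tiam2, also called STEF, are Rac-selective GEFs with known roles in neurite growth, neuronal migration and spine formation. Trio and Kalrn are large multidomain GEFs, Vav proteins are GEFs switched on by tyrosine phosphorylation, and Prex proteins are GEFs driven by phosphoinositides and G protein subunits. Rac1 is the widely expressed switch itself, and Rac3 is its relative enriched in the developing nervous system.

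The 250 bases before the RefSeq transcript starts of Tiam1 and Tiam2 (build GRCm38.p6) are shown because these are the members whose copy number differed between groups. Windows for 8 of the 10 members were matched by symbol, 13 in all. The outermost start and the next one of each gene are printed 5′ to 3′ on the strand of the gene, with a CCAAT box (CCAAT, searched on both strands) in capitals.
Tiam1 start 1, chr16:89974700-89974949, minus strand: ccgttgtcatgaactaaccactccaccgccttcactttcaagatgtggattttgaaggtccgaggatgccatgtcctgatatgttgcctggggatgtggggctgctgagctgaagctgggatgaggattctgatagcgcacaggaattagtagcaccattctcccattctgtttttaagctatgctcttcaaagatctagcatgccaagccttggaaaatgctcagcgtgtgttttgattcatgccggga
Tiam1 start 2, chr16:89818353-89818602, minus strand: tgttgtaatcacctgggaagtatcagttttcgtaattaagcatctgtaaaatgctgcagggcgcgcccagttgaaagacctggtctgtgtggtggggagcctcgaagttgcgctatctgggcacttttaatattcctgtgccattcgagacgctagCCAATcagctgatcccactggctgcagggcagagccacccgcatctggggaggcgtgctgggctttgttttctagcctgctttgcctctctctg
Tiam2 start 1, chr17:3396957-3397206, plus strand: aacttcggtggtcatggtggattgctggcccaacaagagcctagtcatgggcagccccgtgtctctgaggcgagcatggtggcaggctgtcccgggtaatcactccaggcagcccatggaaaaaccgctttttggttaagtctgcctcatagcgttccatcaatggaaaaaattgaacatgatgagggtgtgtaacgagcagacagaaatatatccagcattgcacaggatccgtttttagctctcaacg
Tiam2 start 2, chr17:3482065-3482314, plus strand: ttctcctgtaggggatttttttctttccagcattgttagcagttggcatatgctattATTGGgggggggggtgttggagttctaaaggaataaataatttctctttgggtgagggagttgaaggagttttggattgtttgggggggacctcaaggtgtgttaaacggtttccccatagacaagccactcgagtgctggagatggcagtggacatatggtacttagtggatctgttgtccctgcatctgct

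Tiam1 and Tiam2 each had 1 CCAAT box in the second window and none in the first, and a further Tiam2 start, chr17:3483240-3483489, had none. A CCAAT box was present in 33.8% of all 32851 RefSeq windows of this length. No Tiam1 or Tiam2 window held a GC box (GGGCGG, both strands), which 32.7% of all windows hold, or a TATA box (TATAAA, both strands), which 12.4% hold. The other matched members varied: the Prex1 window held 9 GC boxes with a GC content of 66.4% and the Trio window 3 with 66.8%, while the Vav2 window held 1 with 54.0%. The Kalrn window held none of the 3 motifs at 60.8%, and the third Vav3 start held no GC box at 42.4%. The GC content of the 5 Tiam1 and Tiam2 windows ran from 42.4% to 53.2%, beside a median of 52.4% over all windows. These matches describe letters in the windows only.

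The deposited values are log2 signals from robust multi-array averaging (RMA). Array means ran from 5.26 to 5.33 in the Ts65Dn colony and from 6.05 to 6.41 in the Ts66Yah colony, so levels were compared only within a colony. EupTs66Yah replicate 16, of litter WT18, stood apart: the standard deviation over its probe sets was 1.13, while the next lowest in its group was 2.23. This low-spread array had Rac1 at 5.41 and Rac3 at 6.21, while the other 23 EupTs66Yah embryos lay between 11.54 and 11.90 for Rac1 and between 10.85 and 11.50 for Rac3. The Ts66Yah tests of the members are therefore given with and without it, and other Ts66Yah values state which arrays were used. By their 120 Mmu16 genes other than Tiam1, 4 arrays lay nearer to the other genotype of their colony: Ts65Dn replicate 18, Ts66Yah replicates 13 and 24, and EupTs66Yah replicate 24. Their labels were kept. Among all probe sets the mean signals of 5 cortical markers stood from percentile 51.6 (Emx1) to 99.3 (Neurod6) in the Ts65Dn colony and from 45.5 to 98.6, for the same genes, in the Ts66Yah colony. Those of the hindbrain and midbrain markers reached 41.0 (Hoxb3) and 64.8 (Hoxa5). Such percentiles compare different probes and are a rough guide to level only. The mean signals of the 10 members ranged from percentile 54.4 for Prex2 to 99.4 for Rac1.

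The first question was whether the Rac activators carried on the extra chromosome rose in Ts65Dn, and whether the disomic ones moved with them. Both dosage-changed genes rose, Tiam1 by 1.35-fold and Tiam2 by 1.40-fold, while 0 of the 8 disomic members passed, with 0 at an unadjusted p under 0.05. Across the array 0.491% of probe sets passed the same threshold, an adjusted p under 0.1 from limma with Benjamini-Hochberg adjustment. An unadjusted p under 0.05 was held by 5.8% of all probe sets.

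Tiam1, the GEF encoded on Mmu16, ranged from 6.04 to 6.97 log2 units in EupTs65Dn with a median of 6.61. In Ts65Dn it ranged from 6.67 to 7.35 with a median of 7.06. All 23 trisomic embryos lay above the euploid median, and 17 of them lay above every euploid embryo, so the groups overlapped in the remaining trisomic embryos. The means were 6.62 ± 0.21 (SD, n = 18) and 7.06 ± 0.17 (SD, n = 23). The difference was 0.43 on the log2 scale (SE 0.062, limma adjusted p = 6.7e-06), with a 95% interval of 1.24- to 1.47-fold, which lies below the 1.5 ratio of 3 copies to 2.

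Tiam2, the GEF encoded on Mmu17, was separated further. It ranged from 8.30 to 8.84 log2 units in EupTs65Dn with a median of 8.57, and from 8.43 to 9.26 in Ts65Dn with a median of 9.11. Of the 23 trisomic embryos, 20 lay above every euploid embryo and 1 lay below the euploid median. That embryo, at 8.43, was Ts65Dn replicate 18, the array whose Mmu16 genes lay nearer to the euploid level. The means were 8.56 ± 0.14 (SD, n = 18) and 9.05 ± 0.21 (SD, n = 23), a log2 difference of 0.49 (SE 0.060, limma adjusted p = 3.5e-07) with a 95% interval of 1.29- to 1.53-fold. Without replicate 18 the Tiam2 difference was 0.52 (SE 0.053) and that of Tiam1 was 0.44 (SE 0.062); this array, too, was picked by its Mmu16 level.

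**Figure D1:**
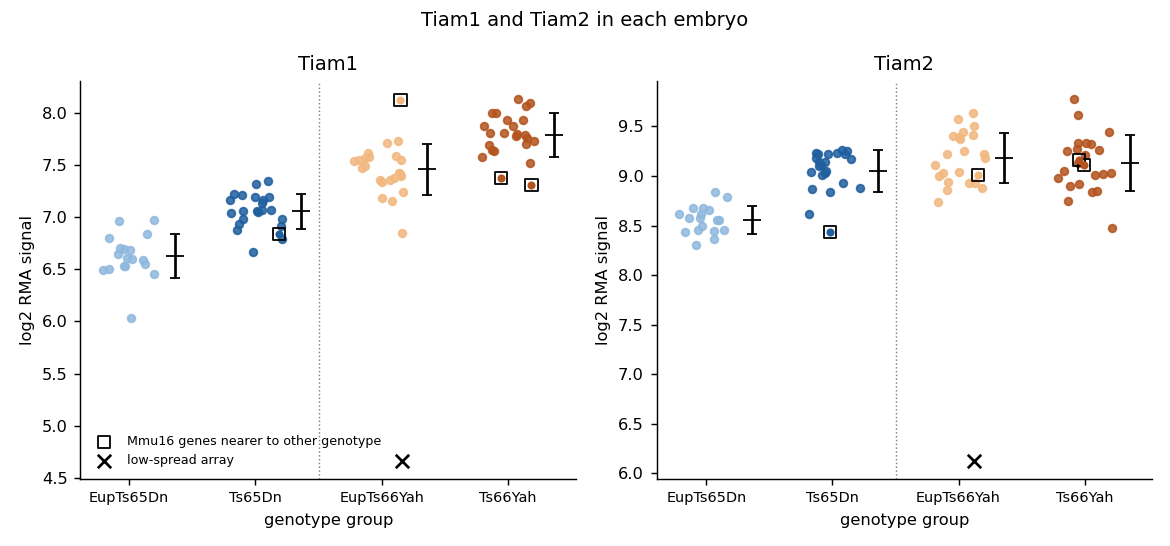
Log2 RMA signal of Tiam1 (left) and Tiam2 (right) in each of 89 embryos by genotype group; bars give the mean and SD without the low-spread array, squares mark arrays whose Mmu16 genes lay nearer to the other genotype, and the dotted line divides the colonies, whose levels are not comparable. Tiam1 is higher in both trisomic groups, while Tiam2 is higher in Ts65Dn and its Ts66Yah and EupTs66Yah embryos overlap from 8.74 to 9.64.

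The disomic members stayed close to 0 in Ts65Dn. Rac1, the GTPase, differed by 0.038 on the log2 scale (SE 0.037, 95% interval -0.038 to 0.11), the narrowest interval among them. Rac3, the neuronal GTPase, differed by -0.040 (SE 0.059, interval -0.16 to 0.078). Among the other GEFs the differences were -0.0069 for Vav2, -0.024 for Vav3, 0.0039 for Prex1, 0.0092 for Prex2, 0.0034 for Trio and -0.020 for Kalrn. The widest interval was that of Vav3, from -0.28 to 0.23, and the highest upper bound was 0.24, for Prex2. All 8 intervals thus ended below 0.585, the log2 of 1.5. Their median difference was -0.0017, beside -0.0021 over all probe sets, and 4 of the 8 were positive. Adjusted p-values ran from 0.97 to 1.0 in this comparison.

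The second question was whether Tiam1 also rose in Ts66Yah, which shares the Mmu16 segment, and whether Tiam2, at 2 copies there, stayed at the euploid level. Tiam1 was 1.36-fold higher with all arrays but did not pass the test, and 1.25-fold higher without the low-spread array, where it passed. Tiam2 did not pass either way. With all arrays 0 of 10 members passed by limma, beside 0.171% of all probe sets, and 0 passed by the methods' t-test. By limma 1 of 10 had an unadjusted p under 0.05, beside 10.2% of all probe sets. Once the low-spread array was left out, 1 of 10 passed, beside 0.932% of all probe sets.

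Tiam1 ranged from 4.66 to 8.12 log2 units in EupTs66Yah with a median of 7.45, the lowest value being that of the low-spread array. Without that array the lowest was 6.85 and the median 7.47. In Ts66Yah it ranged from 7.31 to 8.13 with a median of 7.79. The groups overlapped over most of their range, and only 1 Ts66Yah embryo lay above every euploid embryo, yet 22 of 24 lay above the euploid median. The highest euploid embryo was EupTs66Yah replicate 24, and the Ts66Yah embryos below the euploid median were replicates 13 and 24, at 7.31 and 7.37. These are the arrays whose Mmu16 genes lay nearer to the other genotype.

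The Tiam1 difference was 0.44 on the log2 scale with all arrays (SE 0.13, limma adjusted p = 0.25). With the low-spread array left out it was 0.32 (SE 0.067, limma adjusted p = 0.0059), with a 95% interval of 1.14- to 1.37-fold. Leaving out the 3 other arrays named above as well gave 0.39 (SE 0.058, limma adjusted p = 1.2e-05); these arrays were picked by their Mmu16 level, so that a larger Mmu16 difference follows from the choice and adds no independent support. Leaving out the whole of litter WT18, from which the low-spread array came, gave 0.27 (SE 0.075), with a limma adjusted p of 0.15. That fit, which did not pass, was 1 of 18 alternative fits of this comparison. Tiam1 passed in 6 of the 18 and was positive in all 18, with limma adjusted p from 1.2e-05 to 0.70.

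Tiam2 in EupTs66Yah ranged from 6.13 to 9.64 log2 units with a median of 9.15, and from 8.74 with a median of 9.18 once the low-spread array was left out. In Ts66Yah it ranged from 8.47 to 9.78 with a median of 9.12. The groups overlapped throughout, with 10 of 24 Ts66Yah embryos above the euploid median of the 23 arrays. The difference was 0.075 (SE 0.15, limma adjusted p = 0.79) with all arrays and -0.052 (SE 0.078, limma adjusted p = 0.83) without the low-spread array. The 95% interval of the latter, from 0.87- to 1.08-fold, lay below the interval of Tiam2 in Ts65Dn.

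**Figure D2:**
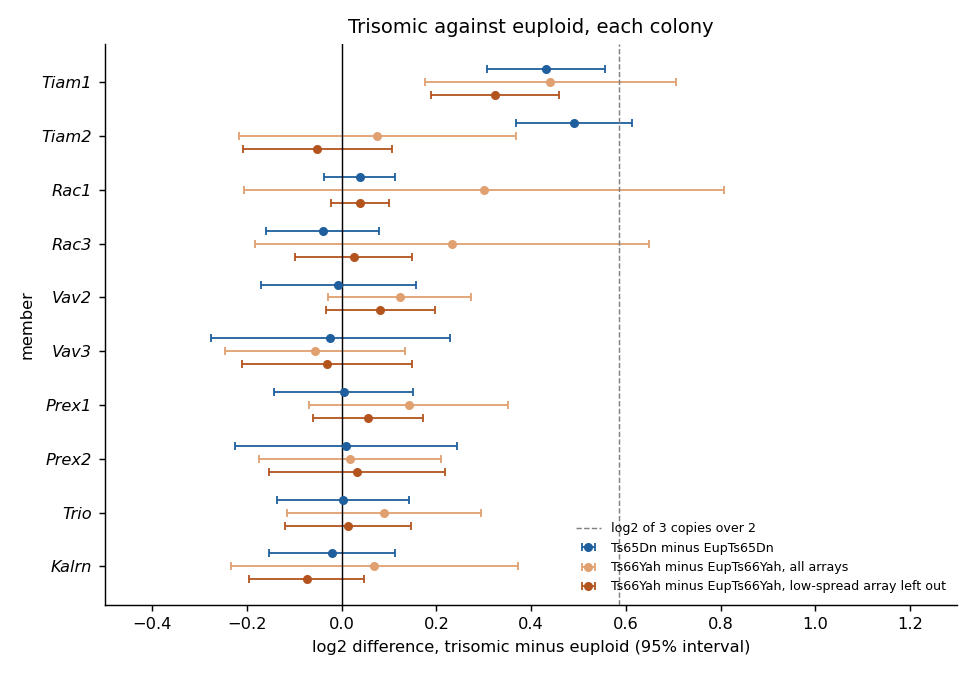
Log2 difference of each member, trisomic minus euploid, with its 95% interval, in Ts65Dn (blue), in Ts66Yah with all arrays (light brown) and in Ts66Yah with the low-spread array left out (dark brown); the dashed line is the log2 of 3 copies over 2. The Tiam1 interval lies above 0 in all 3, that of Tiam2 only in Ts65Dn, around 0.49, and the intervals of the 8 disomic members include 0.

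The disomic members did not pass the test in Ts66Yah. With or without the low-spread array 0 of 8 had an unadjusted p under 0.05, beside 10.2% and 12.1% of all probe sets. With all arrays Rac1 differed by 0.30 (SE 0.25) and Rac3 by 0.23 (SE 0.21). Without the low-spread array these became 0.038 (SE 0.030) for Rac1 and 0.025 (SE 0.061) for Rac3. Over the 8 genes the median was 0.11 with all arrays, beside 0.043 over all probe sets, and 0.029 without the low-spread array, beside 0.0044. Without it the extremes were Vav2 at 0.081 (SE 0.057) and Kalrn at -0.074 (SE 0.061). The 95% intervals then ran no lower than -0.21, for Vav3, and no higher than 0.22, for Prex2.

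The difference between the trisomy effects of the models was tested as an interaction in 1 fit of all 89 arrays. Tiam2 was the member whose effect differed, and it passed once the low-spread array was left out. The difference of its effects was 0.41 on the log2 scale with all arrays (SE 0.17, unadjusted p = 0.016, limma adjusted p = 0.66). Without the low-spread array it was 0.54 (SE 0.10, 95% interval 0.34 to 0.74, limma adjusted p = 0.0009). With all arrays 0 of 10 members passed by limma, beside 0.00901% of all probe sets. An unadjusted p under 0.05 was held by 1 of 10, Tiam2, beside 7.0% of all probe sets. Without the low-spread array 1 of 10 passed, beside 0.149% of all probe sets.

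Tiam1 had no detectable difference of effects. It was -0.0082 with all arrays (95% interval -0.32 to 0.30) and 0.11 without the low-spread array (95% interval -0.073 to 0.29, limma adjusted p = 0.85). The sign thus turned with that array, and the interval still allows an effect larger by 0.29 in Ts65Dn. Among the disomic members the differences of effects without the low-spread array ran from -0.088 for Vav2 to 0.054 for Kalrn.

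**Figure D3:**
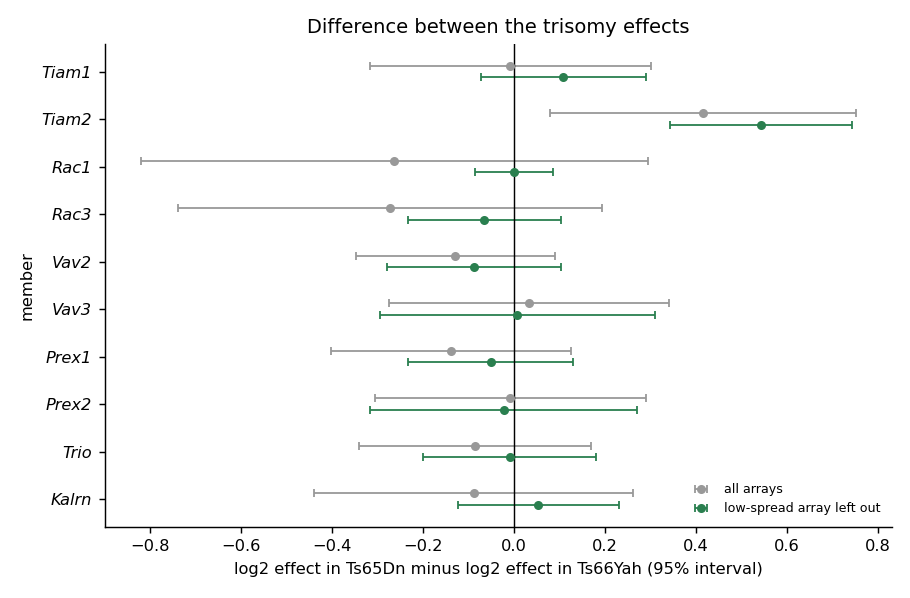
Difference between the trisomy effects, Ts65Dn minus Ts66Yah on the log2 scale, with its 95% interval, for all arrays (grey) and with the low-spread array left out (green). Without the low-spread array Tiam2, at 0.54, is the member whose interval, from 0.34 to 0.74, lies away from 0.

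Trisomic and euploid embryos of a litter share a dam and were also compared within it. Tiam1 was higher in the trisomic littermates in 6 of 6 litters of the Ts65Dn colony, by 0.20 to 0.67 log2 units. It was also higher in 6 of 6 litters of the Ts66Yah colony, by 0.19 to 0.52, with the low-spread array left out. Tiam2 was higher in 6 of 6 Ts65Dn litters, by 0.40 to 0.63. In the Ts66Yah colony it was higher in 3 of 6 litters, from -0.30 in litter WT12 to 0.20 in litter WT13. Litter as a block gave Tiam1 0.44 and Tiam2 0.49 in Ts65Dn, and Tiam1 0.32 (limma adjusted p = 0.023) in Ts66Yah without the low-spread array.

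**Figure D4:**
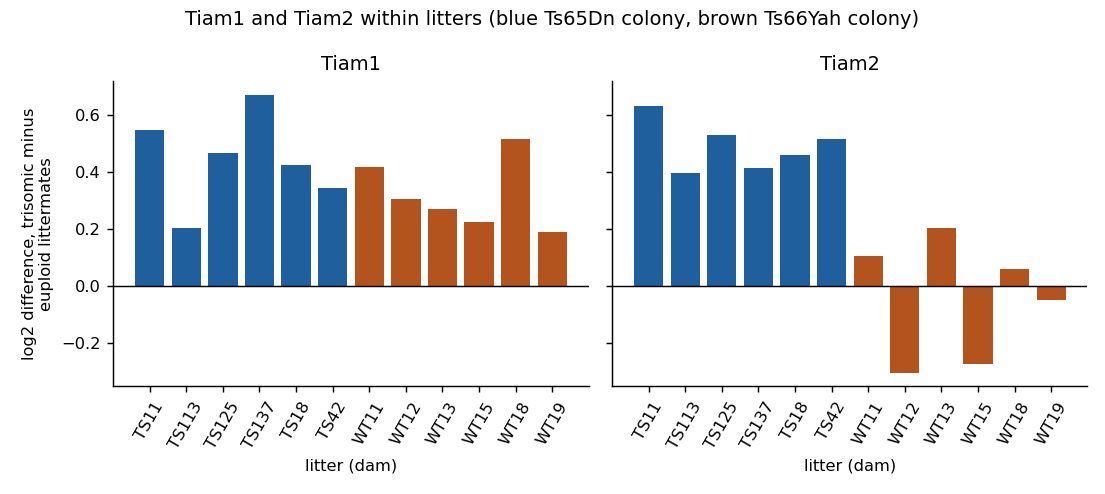
Mean log2 difference between trisomic and euploid littermates in each of 12 litters for Tiam1 (left) and Tiam2 (right), with Ts65Dn litters in blue, Ts66Yah litters in brown and the low-spread array left out. Each bar rests on 1 to 6 embryos of each genotype; Tiam1 bars are positive in all 12 litters, and Tiam2 bars are positive in the 6 Ts65Dn litters and in 3 of 6 Ts66Yah litters.

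No member passed the test for a difference between litters. In a limma F test of litter beside genotype, 0 of 10 members passed in the Ts65Dn colony, beside 0.378% of all probe sets. In the Ts66Yah colony 0 of 10 passed with all arrays, beside 0% of all probe sets, and 0 of 10 without the low-spread array, beside 0.0901%. Rac3 came nearest in both colonies, with an unadjusted p of 0.018 in each and adjusted p-values of 0.35 and 0.33, the latter without the low-spread array. It was the only member with an unadjusted p under 0.05 in either of these fits.

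The members were ranked beside the other genes of their segments. Tiam1 ranked 35 among 121 measured Mmu16 genes by its difference in Ts65Dn, where the median gene differed by 0.30, and 33 among the 55 that passed. In Ts66Yah it ranked 47 of 121 with all arrays, with a median of 0.36. Once the low-spread array was left out it ranked 60 of 121, with a median of 0.32, and 52 among the 59 that passed. Tiam2 ranked 6 among the 41 measured Mmu17 genes in Ts65Dn, where the median was 0.39, and 6 among the 25 that passed. In Ts66Yah that median was 0.082 with all arrays and -0.018 without the low-spread array, and Tiam2 ranked 23 and 28. Of the 41 genes 0 passed by limma in either fit, beside 0.171% and 0.932% of all probe sets. In each fit 3 had an unadjusted p under 0.05, beside 10.2% and 12.1% of all probe sets.

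Neighbours on the chromosome were read beside both genes. After Tiam1 come Sod1, the superoxide dismutase, Scaf4, a regulator of transcript ends, and the kinase gene Hunk. In Ts65Dn these differed by 0.48, 0.36 and 0.41 log2 units and passed the test. In Ts66Yah without the low-spread array they differed by 0.34, 0.35 and 0.51 and passed. With all arrays Hunk passed at 0.50 (limma adjusted p = 0.00051), while Sod1 at 0.49 and Scaf4 at 0.54 did not (limma adjusted p = 0.28 and 0.36). Before Tiam1 lie the keratin-associated genes Krtap11-1, Krtap7-1 and Krtap8-1, which did not pass in either model. In Ts65Dn they differed by 0.026, 0.11 and 0.071. In Ts66Yah Krtap7-1 differed by 0.42 with all arrays (SE 0.14, unadjusted p = 0.0050, limma adjusted p = 0.33). Without the low-spread array it differed by 0.44 (SE 0.14, unadjusted p = 0.0035, limma adjusted p = 0.17). In that fit Krtap11-1 differed by 0.13 and Krtap8-1 by -0.020. Beside Tiam2, Scaf8, the relative of Scaf4, differed by 0.45 in Ts65Dn. Tfb1m, a mitochondrial ribosomal RNA methyltransferase, differed by 0.60, or 1.51-fold, the largest of the Mmu17 genes. Scaf8 and Tfb1m passed in Ts65Dn and not in Ts66Yah, where they differed by -0.039 and 0.16 without the low-spread array. The other Mmu17 neighbours did not pass in Ts65Dn: LOC547349 differed by 0.10, Cldn20, a claudin gene, by 0.36 (limma adjusted p = 0.84), and Nox3, an NADPH oxidase gene, by -0.066.

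**Figure D5:**
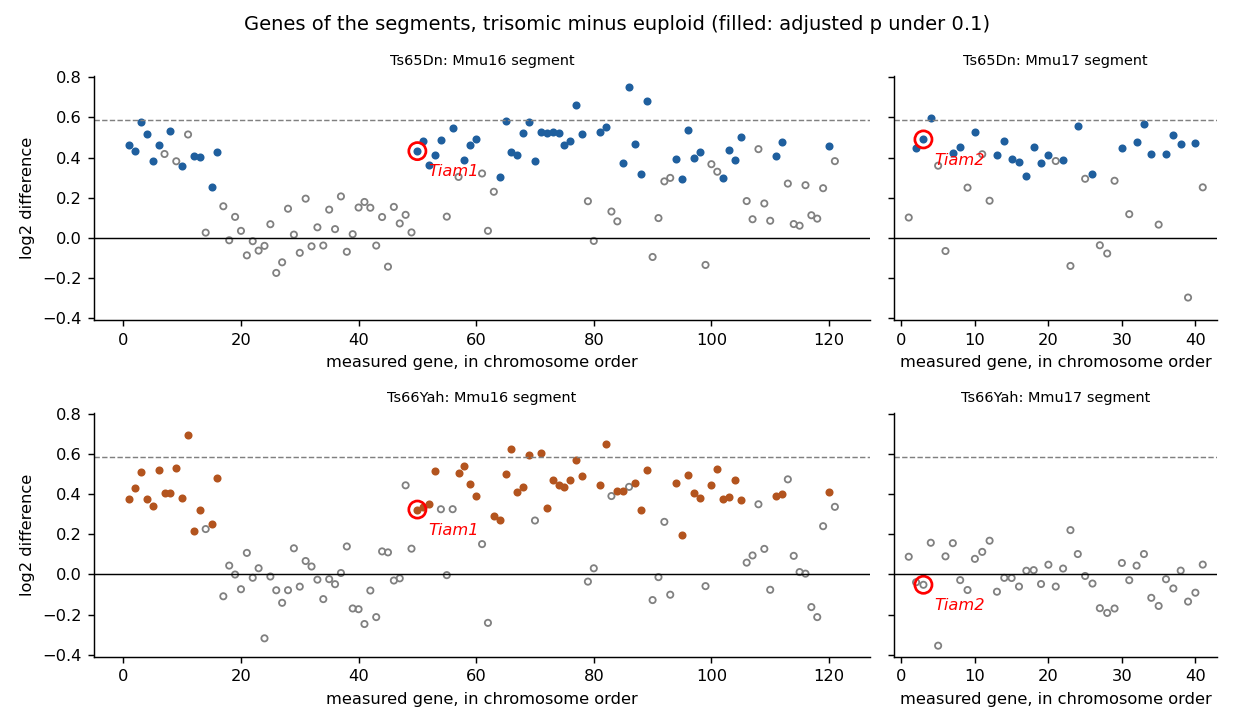
Log2 difference, trisomic minus euploid, of each measured gene of the Mmu16 segment (121 genes, left) and of the Mmu17 segment (41 genes, right) in chromosome order, in Ts65Dn (top) and in Ts66Yah with the low-spread array left out (bottom); filled points passed the test and the dashed line is the log2 of 1.5. Tiam1 sits at 0.43 and 0.32 among the responding Mmu16 genes, and Tiam2 at 0.49 in Ts65Dn and -0.052 in Ts66Yah, where the Mmu17 genes scatter around 0.

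The rest of the Rac pathway was described with 130 listed genes, of which 117 were measured. In Ts65Dn 2 of them, or 1.7%, had an unadjusted p under 0.05, beside 5.8% of all probe sets. By adjusted p 1 passed, or 0.855%, beside 0.491% of all probe sets. This was Itsn1, intersectin, a scaffold and exchange factor of endocytosis, which was higher. It was the only listed pathway gene that lies in either segment, on Mmu16, and it differed by 0.46 (SE 0.042, 1.38-fold, limma adjusted p = 3.5e-10). Over the 117 genes the median difference was -0.014, beside -0.0021 over all probe sets, and 45 were positive.

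By role, 1 of 30 other listed GEFs passed in Ts65Dn, namely Itsn1, beside 0.491% of all probe sets. The 16 GTPase-activating proteins had 0 passing, 14 of them negative, with a median of -0.033. Negative differences were held by 72 of the 117 pathway genes and by 11320 of 22206 probe sets. Arhgap32 had the smallest p among the GTPase-activating proteins, with a difference of -0.12 (unadjusted p = 0.086). In Ts66Yah 13 of these 16 were positive with all arrays, beside 101 of the 117 pathway genes. Without the low-spread array 11 of the 16 were positive there, beside 77 of the 117. In Ts65Dn the 16 other small GTPases and the 16 genes of the PAK, LIM kinase and cofilin branch also had 0 passing. So did the 20 Tiam partners of polarity, receptor and scaffold function. In these 4 lists, the GTPase-activating proteins included, 0 genes had an unadjusted p under 0.05, beside 5.8% of all probe sets. The smallest p among the other small GTPases was that of Rhoa, with a log2 difference of 0.054. In the PAK branch it was that of Limk1, with a log2 difference of 0.075. Among the Tiam partners it was that of Pard6b, with a log2 difference of 0.14. Among 18 genes of the WAVE and Arp2/3 branch, which builds branched actin, 0 passed and 1 had an unadjusted p under 0.05. Wasf1, a WAVE subunit, had the smallest p, with a difference of 0.11 (SE 0.044, unadjusted p = 0.017, limma adjusted p = 0.72). The single measured GDP dissociation inhibitor, Arhgdib, differed by -0.038.

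In Ts66Yah 0 of the 117 genes passed by limma with all arrays, beside 0.171% of all probe sets. An unadjusted p under 0.05 was held by 12, or 10.3%, beside 10.2% of all probe sets. By the methods' t-test, run on the same values, the adjusted p of Rras was 0.092. Leaving out the low-spread array, 3 passed, all higher, beside 0.932% of all probe sets; 12 again had an unadjusted p under 0.05, beside 12.1% of all probe sets. Itsn1 differed by 0.44 (SE 0.082, limma adjusted p = 0.0015). Rras, a Ras-family GTPase known in integrin adhesion, differed by 0.31 (SE 0.078, limma adjusted p = 0.046). Limk1, the LIM kinase that phosphorylates cofilin below PAK, differed by 0.17 (SE 0.044, limma adjusted p = 0.065). With array spread as a covariate as well, Itsn1 still passed at 0.31, while Rras at 0.21 and Limk1 at 0.14 had limma adjusted p-values of 0.27 and 0.23. In Ts65Dn Rras differed by 0.088 (SE 0.082) and Limk1 by 0.075 (SE 0.050), and neither passed. In the difference of effects 0 of the 117 genes passed by limma with all arrays or without the low-spread array, beside 0.00901% and 0.149% of all probe sets. In these fits 4 and 5 had an unadjusted p under 0.05, or 3.4% and 4.3%, beside 7.0% and 7.1% of all probe sets.

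Markers of cell types that a forebrain dissection could hold were measured beside these results. None of the 50 measured markers in 11 lists passed in either model, with or without the low-spread array. Of all probe sets 0.491% passed in Ts65Dn. In Ts66Yah 0.171% passed with all arrays and 0.932% without the low-spread array. An unadjusted p under 0.05 was held by 7 of 50 in Ts65Dn, beside 5.8% of all probe sets. In Ts66Yah it was held by 7 of 50 with all arrays and 5 of 50 without the low-spread array, beside 10.2% and 12.1%. The marker share was thus above that of all probe sets in Ts65Dn and in Ts66Yah with all arrays, and below it without the low-spread array. Hoxa5, a hindbrain and spinal cord gene, differed by 0.92 in Ts66Yah with all arrays (SE 0.45, unadjusted p = 0.045, limma adjusted p = 0.48) and by 0.87 without the low-spread array (SE 0.46, limma adjusted p = 0.45). These were the highest differences of any probe set in both fits. The 6 measured hindbrain and midbrain markers, Hoxa5 included, had medians of 0.24 and 0.27 in these fits. In each fit 5 were positive and 1 negative. Without the low-spread array 0 of the 6 had an unadjusted p under 0.05, beside 12.1% of all probe sets. In Ts65Dn the smallest unadjusted p was that of Gpr17, a gene of oligodendrocyte precursors, at 0.31 (SE 0.10, unadjusted p = 0.0048, limma adjusted p = 0.44). The part of these values in the levels of the members was not tested.

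Pairs of members were weakly correlated from embryo to embryo. After group means were subtracted, Pearson's r between pairs of members ranged from -0.32 to 0.40 over the 41 embryos of the Ts65Dn colony, and from -0.43 to 0.43 over 47 embryos of the Ts66Yah colony. Rac3 and Kalrn gave -0.32 in the former and -0.42 in the latter. For Tiam1 against Tiam2, Pearson's r within a group was -0.42 in EupTs65Dn (n = 18, permutation p = 0.081) and -0.24 in Ts65Dn (n = 23, permutation p = 0.28). It was -0.065 in EupTs66Yah (n = 23, permutation p = 0.77) and 0.18 in Ts66Yah (n = 24, permutation p = 0.39). Spearman's rho was -0.30, -0.40, -0.031 and 0.10 in the same order, with permutation p of 0.23, 0.059, 0.89 and 0.64. None of these 4 relations passed after Benjamini-Hochberg adjustment, with adjusted p-values from 0.32 to 0.77 for r and from 0.24 to 0.89 for rho. Without the 2 embryos farthest from the median of Tiam1, r was -0.24, -0.16, 0.058 and 0.25. Ts65Dn replicate 18, at 6.84 for Tiam1 and 8.43 for Tiam2, stayed in all of these Ts65Dn values. The relation without that array was not tested.

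The genes most like Tiam1 and Tiam2 across embryos were taken by Pearson's r on the log2 values, in which genotype is a shared source. Over the 41 embryos of the Ts65Dn colony, Tiam1 was most like Ezr (r = 0.80), Paxbp1 (0.77), App (0.76), Atp5o (0.76) and Tulp4 (0.76), all of them in the extra segments. Over 47 embryos of the Ts66Yah colony it was most like Cryzl1 (r = 0.73), Tmem50b (0.72), Dyrk1a (0.72), Vps26c (0.71) and Synj1 (0.71), all on Mmu16. Tiam2 in the Ts65Dn colony was most like Cct8 (r = 0.90), Ifnar2 (0.86), Rnaset2a (0.82), Sft2d1 (0.82) and Dynlt1c (0.82), again all in the extra segments. With group means subtracted, Tiam2 and Cct8, a chaperonin subunit gene on Mmu16, still gave r = 0.69, or 0.52 without Ts65Dn replicate 18. Cct8 was picked by this correlation, and over 47 embryos of the Ts66Yah colony the same value was 0.16.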

How the data were processed

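Per the submitters' processing notes, the deposited values are log2 signals made by RMA, and they were used as deposited. The genome build behind the probe sets is not named in those sources. Gene symbols came from the platform annotation, which named 19572 of 22206 probe sets, and gene order from RefSeq (GRCm38.p6). Promoter windows came from RefSeq. Groups and litters came from the labels.

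Each trisomic group was compared with the euploid group of its colony by limma 3.58.1 (lmFit and eBayes, R 4.3.3), as a two-sided test. P-values were adjusted by Benjamini-Hochberg across every probe set on the array, and adjusted values under 0.1, the 10% of the series text, passed. The difference of effects was a contrast in 1 fit. The script was tested on simulated data. All 10 members are named. For each pathway list in Ts65Dn the text gives counts and names genes past the threshold or the one with the smallest p. In the other comparisons, and for the markers, counts of passing genes are pooled over the lists. Not every list has a named gene there. The members, lists and the handling of the low-spread array were chosen with earlier results of these data known. Alternatives were litter as a block, sex, the methods' t-test, thresholds, a signal filter, normalization, array weights, arrays and litters left out, and 1 fit of all groups. Array spread as a covariate, and the litter block without the low-spread array, were chosen after seeing the data. Embryos are separate animals, and their number limits the precision.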

Additional observations from a re-analysis of the deposited data

Results flagged for a closer look

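The trisomy effect on Tiam2 differed between the models by a test of the difference itself. The log2 effect was larger in Ts65Dn than in Ts66Yah by 0.54 (SE 0.10, limma adjusted p = 0.0009) without the low-spread array, and by 0.41 (SE 0.17, limma adjusted p = 0.66) with it. It passed in 6 of 23 alternative fits and was positive in all 23, with adjusted p from 0.00023 to 0.88. Tiam2 was higher in 6 of 6 Ts65Dn litters and in 3 of 6 Ts66Yah litters. By the same test 22 of the 41 measured Mmu17 genes passed without the low-spread array, Tiam2 ranking 4 of 41 by size, and 2 of 41 passed with all arrays.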

How the results depend on the processing

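In Ts65Dn, Tiam1 and Tiam2 kept direction and call in all 16 alternative fits, at 0.39 to 0.49 and 0.46 to 0.52; the highest adjusted p-values, 0.095 and 0.065, came from 1 fit of all 4 groups. Sign turns of members that passed in no fit are given as log2 values, and the cause of the changes below was not tested. No low-spread array could be left out in that colony.

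Ts65Dn: 246 probe sets met the marginal criterion and 68 passed in 1 fit of all groups, beside 109. Litter as a block gave Prex1 -0.0055 and Trio -0.0065; without replicate 18 Vav2 was 0.014; with array spread as covariate Vav2 was 0.0021 and Trio -0.0022. With each litter left out, the ranges were Vav2 -0.054 to 0.063, Vav3 -0.10 to 0.060, Prex1 -0.081 to 0.049, Prex2 -0.076 to 0.082, Trio -0.036 to 0.048 and Kalrn -0.084 to 0.027.

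Ts66Yah, beside 0 members and 38 probe sets: 1 member, Tiam1, passed under the marginal criterion (472 probe sets), with array weights (158; Tiam1 0.31, Tiam2 -0.072, Kalrn -0.073), without the low-spread array (207; Tiam1 0.32, Tiam2 -0.052, Kalrn -0.074), without it and the arrays nearer to the other genotype (326; 0.39, -0.060, -0.091; a larger Mmu16 difference follows from that choice), in 1 fit of all groups (210; Tiam1 0.44), with the litter block and without the low-spread array (156; 0.32, -0.065, -0.079) and with array spread as covariate and without it (91; 0.29, -0.074, -0.13, with Prex2 -0.072 and Trio -0.020). Prex2 was -0.11 after quantile normalization and -0.037 after centring on array medians. With each litter left out, 15 to 88 probe sets passed, and the ranges were Tiam2 -0.081 to 0.17, Prex2 -0.015 to 0.057 and Kalrn -0.11 to 0.13.

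Difference of effects, beside 0 members and 2 probe sets: 1 member, Tiam2, passed with array weights (29 probe sets; Tiam2 0.56, Tiam1 0.12, Kalrn 0.046), without the low-spread array (33; 0.54, 0.11, 0.054), without it and the arrays nearer to the other genotype (34; 0.58, 0.048, 0.078), with the litter block and without it (29; 0.56, 0.12, 0.051, with Rac1 0.0069 and Vav3 -0.058) and with array spread as covariate and without it (31; 0.57, 0.15, 0.11, with Rac1 0.031, Prex2 0.12 and Trio 0.017). Probe sets passing were 1 with sex as covariate, 1 at 0.05, 312 under the marginal criterion and 8 after quantile normalization, which gave Prex2 0.11. Centring gave Tiam1 0.045 and Prex2 0.045, and the litter block with all arrays gave Tiam1 0.0035, Vav3 -0.035 and Prex2 0.011. With each litter left out, 0 to 1 members and 1 to 27 probe sets passed, and the ranges were Tiam1 -0.084 to 0.16, Tiam2 0.32 to 0.57, Rac1 -0.34 to 0.0075, Vav3 -0.049 to 0.12, Prex2 -0.094 to 0.064 and Kalrn -0.15 to 0.092.

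Litter as a block with all arrays changed no member's call. Intervals of Vav3 and Prex2, whose signals lay lowest, were the widest in Ts65Dn.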

Other observations

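In the Ts66Yah colony, where Tiam2 is at 2 copies in all embryos, the genes most like it were described. Over 47 embryos without the low-spread array these were Neurod6 (Pearson's r = 0.76), a transcription factor of cortical pyramidal neurons, Cdk19 (0.72), Znrf2 (0.72), Lmo7 (0.71) and Mpped1 (0.71), and none of these lies in an extra segment. With group means subtracted Neurod6 stayed first (r = 0.76), and Fezf2, a transcription factor of deep-layer neurons, came second (r = 0.73). The other listed cortical markers gave r = 0.69 for Tbr1, 0.49 for Emx2, 0.44 for Bcl11b and 0.21 for Emx1 there, and -0.22, 0.32, -0.059 and 0.19 over the 41 embryos of the Ts65Dn colony.

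Neurod6 was chosen by this likeness, so only the Ts65Dn colony tests it. There Pearson's r with Tiam2 was 0.50 in Ts65Dn (n = 23, permutation p = 0.024, adjusted 0.048 over 2 groups) and 0.34 in EupTs65Dn (n = 18, permutation p = 0.17, adjusted 0.17). Spearman's rho was 0.48 (permutation p = 0.022, adjusted 0.043) and 0.22 (permutation p = 0.37, adjusted 0.37). Without the 2 embryos farthest from the median of Neurod6, r was 0.27 and 0.12, so the size of r in Ts65Dn depends in part on those embryos. Leaving them out also narrows the range of Neurod6. Fezf2 gave r = -0.033 over the 41 embryos of that colony with group means subtracted. Neurod6 itself differed by -0.073 (SE 0.074, limma adjusted p = 0.73) between Ts66Yah and EupTs66Yah without the low-spread array.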
